A study of Homo sapiens with 11 samples.

Results

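Aminoacyl-tRNA synthetases were followed in 11 RNA sequencing libraries of MOLM-13, a human acute myeloid leukemia (AML) line with a rearranged KMT2A gene. The set was fixed by gene symbol and held 33 genes of the 38557 in the table of counts, of which 18 encode cytosolic enzymes (symbols ending in 1, with FARSA and FARSB) and 15 encode mitochondrial enzymes (symbols ending in 2). All 33 symbols were present in the table. Cells had been kept for 72 h in DMSO (4 libraries), in MI-503 at 1 µM, which blocks the KMT2A partner protein Menin (4 libraries), or in that dose of MI-503 plus PR-957 at 100 nM, also called ONX-0914, which blocks the immunoproteasome subunit PSMB8 (3 libraries, numbered 1, 2 and 4). This last group is named the combination. DMSO was the diluent of the untreated controls. All groups were the same cell line, so each value describes 1 line, and with no library that received PR-957 alone the effect of PR-957 was measured only on top of MI-503.

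Each aminoacyl-tRNA synthetase joins 1 amino acid to the transfer RNAs that read its codons, and the ribosome can use an amino acid only after this charging step. Most amino acids have separate nuclear genes for the cytosolic and the mitochondrial enzyme, while GARS1 (glycine) and KARS1 (lysine) each provide the enzyme of both compartments. Several cytosolic enzymes sit together in the multi-synthetase complex, others are free, and the enzymes fall into class I and class II by the fold of their catalytic domain. Many cytosolic synthetase genes are known targets of ATF4, the transcription factor of the amino acid response.

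Counted fragments per library ran from 18.89 to 41.15 M, and 14683 genes passed the filter on low counts and were tested. Combination replicate 1 stood apart from its group, with 38 of 10041 genes more than 2-fold from the mean of replicates 2 and 4, against 2 and 12 genes for those replicates and at most 1 gene in any DMSO or MI-503 library. Among the tested synthetases, 2 were more than 1.2-fold from the rest of the group in that library, so results that turned on it are also given without it. The 8 myeloid markers checked (PTPRC, CD33, SPI1, CEBPA, MPO, FLT3, MEIS1 and HOXA9) were present in every library. Markers of T cells, B cells, red cells, epithelium and fibroblasts summed to 2.05 to 3.49 CPM per library (counts scaled to a common library size), with ranges of 2.42 to 3.46 in DMSO, 2.36 to 2.91 in MI-503 and 2.05 to 3.49 in the combination. Of these 10 markers, 8 were at 0 in at least 8 libraries. COL1A1, a fibroblast collagen, was called higher in the combination, at 0.809 CPM against 0.384 in MI-503 and 0.371 in DMSO, and the part of such RNA in the results was not tested. The labels do not say whether replicates were separate cultures, so p-values measure the spread between these libraries, which may be technical.

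The promoters of several cytosolic members share a short element, TGATGNAA, the kind of composite site that ATF4 binds with C/EBP proteins. It was searched on both strands of the RefSeq promoter windows, which run from 250 bases before to 50 bases after a gene's start (GRCh38.p14). Windows were found for 30 of the 33 members, and not for AARS2, LARS1 and YARS1. The element was present for 7 of 16 cytosolic members and for 1 of 14 mitochondrial members, against 3.62% of all 35116 windows and 2.79% of tested genes with a window. The 8 sites are shown because this count rests on their letters. Each is printed on the strand of its gene with the element in capitals, which read TTNCATCA where the match is on the opposite strand. Distances run from the start of the RefSeq window to the element's first letter, so the elements of MARS1 and CARS1 cross that start. By the longest annotated gene spans, the elements of GARS1, CARS1, IARS1, TARS1, NARS1 and YARS2 lie inside the gene.
GARS1 (chr7:30594834-30594863, plus strand, 33 bases before a start): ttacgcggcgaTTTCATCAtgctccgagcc
MARS1 (chr12:57488053-57488082, plus strand, 4 bases before the start): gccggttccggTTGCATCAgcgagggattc
CARS1 (chr11:3057407-3057436, minus strand, 2 bases before the start): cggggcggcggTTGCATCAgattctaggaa
IARS1 (chr9:92293692-92293721, minus strand, 13 bases before the start): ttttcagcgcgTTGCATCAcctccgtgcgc
TARS1 (chr5:33440956-33440985, plus strand, from base 3 of the transcript): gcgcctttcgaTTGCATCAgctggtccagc
AARS1 (chr16:70289675-70289704, minus strand, 187 bases before the start): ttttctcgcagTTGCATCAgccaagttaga
NARS1 (chr18:57621804-57621833, minus strand, from base 15 of the transcript): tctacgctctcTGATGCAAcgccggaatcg
YARS2 (chr12:32756076-32756105, minus strand, 197 bases before the start): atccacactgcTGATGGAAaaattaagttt

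The core TTGCATCA was identical in MARS1, CARS1, IARS1, TARS1 and AARS1, and NARS1 held the same letters on the other strand. A match is a description of these letters and no measure of binding. Binding was not measured in these libraries.

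In DMSO, the cytosolic genes were the more abundant members. Levels between genes are given as FPKM (CPM per kb of exon). Leaving out CARS1 and SARS2, the cytosolic genes ran from 10.8 FPKM (FARSB) to 294 FPKM (FARSA), with a median of 85, and the mitochondrial genes from 2.66 FPKM (FARS2) to 77.4 FPKM (IARS2), with a median of 9.56. After FARSA came QARS1 (147 FPKM), MARS1 (136), TARS1 (130), AARS1 (128) and EPRS1 (126), the gene of the fused glutamate and proline enzyme. IARS2 was the exception among the mitochondrial genes, level with its cytosolic counterpart IARS1 at 75.5 FPKM, while the next mitochondrial gene, TARS2, stood at 23.1 FPKM. Cytosolic and mitochondrial genes for the same amino acid were set against each other in 13 pairs matched by symbol. FARSA and FARSB were each paired with FARS2. In 11 of these pairs the cytosolic gene was higher per kb in every library. EPRS1 was not paired with EARS2 or PARS2, nor SARS1 with SARS2. FARSA and FARSB encode the alpha and beta subunits of 1 enzyme, yet their levels per kb differed widely, with 1811 annotated exon bases for FARSA and 9202 for FARSB, so the FARSB level per kb depends on how much of that annotation the cells use.

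CARS1 and SARS2 have exons annotated on more than 1 contig of hg38, and fragments that mapped to several places had been left out. All 35 of the 100-base exon windows of CARS1 recurred on an alternate contig of chromosome 11, so its 2.03 FPKM in DMSO understates the gene by an unknown amount, and its differences rest on 94 to 241 counts per library. SARS2, the mitochondrial serine enzyme, had 5 counts in all, was at 0 in 7 libraries and was not tested. Its neighbor MRPS12, which shares exon bases with it, had 6 counts in all. None of the 16 exon windows of SARS2 recurred elsewhere in the hg38 sequence used. That sequence lacks the contig of the second SARS2 annotation, so the cause of the low SARS2 count was not tested.

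Summed over the genes, both compartments were lower in the treated groups. The 18 cytosolic genes summed to 5116, 4864, 4856 and 5088 CPM in the DMSO replicates, to 3684, 3810, 3925 and 3901 CPM in MI-503 and to 3452, 3330 and 3321 CPM in the combination. The 15 mitochondrial genes summed to 884, 866, 871 and 869 CPM in DMSO, to 677, 674, 671 and 663 CPM in MI-503 and to 620, 622 and 628 CPM in the combination. The groups did not overlap in either sum, and each treated group lay below DMSO. The mitochondrial step from MI-503 to the combination rested on IARS2. Without it, a choice made after the values were seen, the other 14 genes summed to 600, 601, 606 and 590 CPM in DMSO, to 503, 497, 500 and 491 CPM in MI-503 and to 495, 495 and 498 CPM in the combination. These sums overlapped between the treated groups, at 83% and 82.8% of DMSO. With all 15 genes, both sums came to 76.9% of DMSO under MI-503, and in the combination the cytosolic sum came to 67.6% and the mitochondrial sum to 71.4% of DMSO. The ratio of the cytosolic to the mitochondrial sum was 5.71 ± 0.132 (SD, n = 4) in DMSO, 5.71 ± 0.201 (n = 4) in MI-503 and 5.41 ± 0.147 (n = 3) in the combination. MI-503 overlapped both other groups, and the highest combination library (5.57) lay just below the lowest DMSO library (5.58). In bulk RNA, fewer cells that express a gene and less RNA per cell cannot be told apart.

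**Figure D1:**
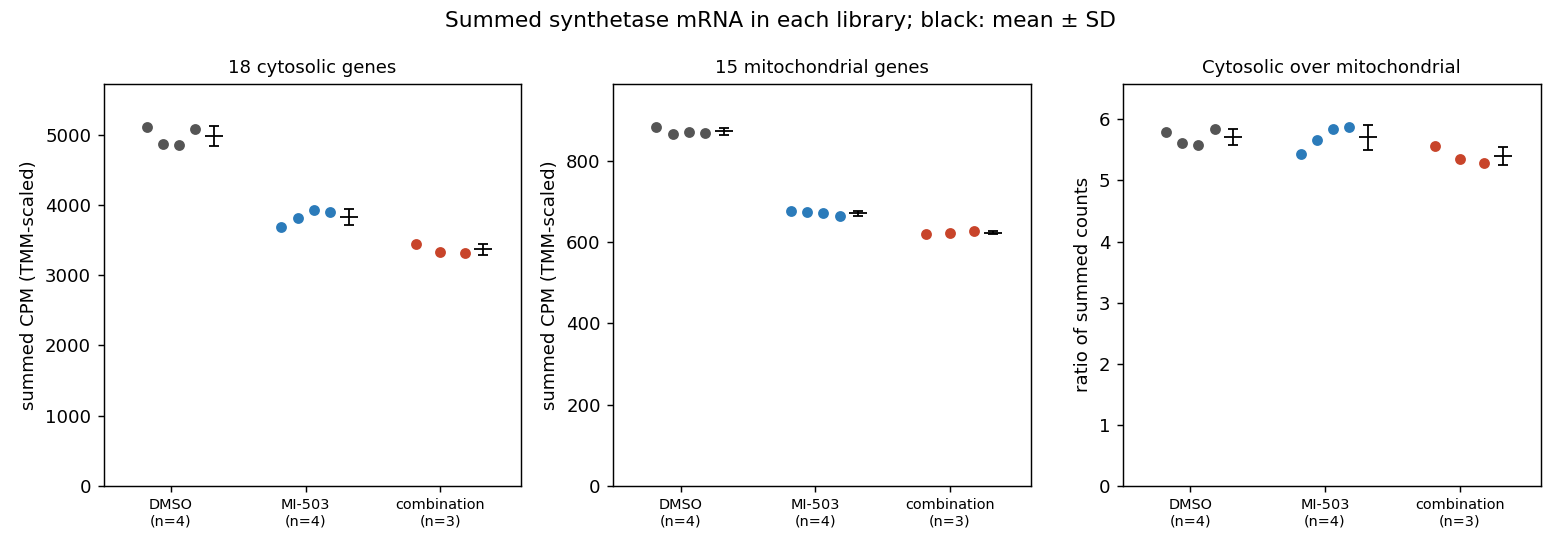
Summed CPM of the cytosolic genes (left) and the mitochondrial genes (middle) and their ratio (right) in each library, 1 point per library, with the group mean ± SD in black. The cytosolic sum averaged 4981 CPM in DMSO, 3830 in MI-503 and 3368 in the combination, and the mitochondrial sum 872, 671 and 623 CPM, while the ratio stayed between 5.29 and 5.88.

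MI-503 was first compared with DMSO, and no library had Menin blocked by another means. Nearly all cytosolic members fell, 17 of 18, while 1 (QARS1) rose. Of all tested genes 51.4% were called in this comparison (edgeR adjusted p under 0.05), 29.3% lower and 22.0% higher. The median log2 fold change was -0.39 over the cytosolic members and -0.028 over all tested genes. Of the 14 tested mitochondrial members 12 fell and none rose, with a median of -0.30, and HARS2 and TARS2 were not called. Levels of the cytosolic members did not overlap between MI-503 and DMSO for any of the 18 genes, and for the mitochondrial ones they stood apart, all lower, for 11 of 14. Of all tested genes 50.3% did not overlap, 29.1% lower and 21.2% higher.

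Glycine and methionine enzymes lost most of the cytosolic set. GARS1, the glycyl-tRNA synthetase of both compartments (chr7:30594735-30634033), stood at 243, 203, 227 and 243 CPM in the DMSO replicates, at 118, 124, 138 and 138 CPM in MI-503 and at 98.8, 96.2 and 98.5 CPM in the combination. All MI-503 libraries were below all DMSO libraries, and the combination was lower again with no overlap. GARS1 fell by 0.82 under MI-503 on the log2 scale (SE 0.06, edgeR adjusted p = 1.07e-08). MARS1, the methionine enzyme of the complex (chr12:57488068-57516655), stood at 430, 385, 409 and 435 CPM in DMSO, at 248, 264, 272 and 280 CPM in MI-503 and at 251, 261 and 257 CPM in the combination. Both treated groups were below DMSO and overlapped each other. MARS1 fell by 0.64 under MI-503 (SE 0.05, adjusted p = 1.09e-08). Its exons share 2.23% of their bases with the neighboring gene DDIT3, and fragments in shared bases had been left out.

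The smallest fall among called cytosolic members was that of NARS1, which charges asparagine. NARS1 (chr18:57600656-57621836) stood at 244, 228, 225 and 242 CPM in DMSO, at 197, 198, 199 and 200 CPM in MI-503 and at 178, 193 and 197 CPM in the combination. The MI-503 libraries lay within a few CPM of each other and below all DMSO libraries, and the log2 fold change was -0.24 (SE 0.04, adjusted p = 0.000134).

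QARS1, which charges glutamine and belongs to the complex, was the cytosolic member that did not fall. QARS1 (chr3:49095932-49104758) stood at 358, 364, 358 and 359 CPM in DMSO, at 393, 405, 398 and 391 CPM in MI-503 and at 415, 354 and 343 CPM in the combination. The MI-503 libraries were above all DMSO libraries, and combination replicate 1 was above every other library while replicates 2 and 4 were below all of them. QARS1 rose by 0.14 under MI-503 (SE 0.05, adjusted p = 0.0246), a call that was lost without DMSO replicate 1 (0.14, adjusted p = 0.0552), DMSO replicate 3 (0.14, 0.0539), DMSO replicate 4 (0.14, 0.0542) or MI-503 replicate 2 (0.13, 0.0634). Over 20 alternative analyses its adjusted p ran from 1.45e-05 to 0.0634 and its value stayed above 0.

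**Figure D2:**
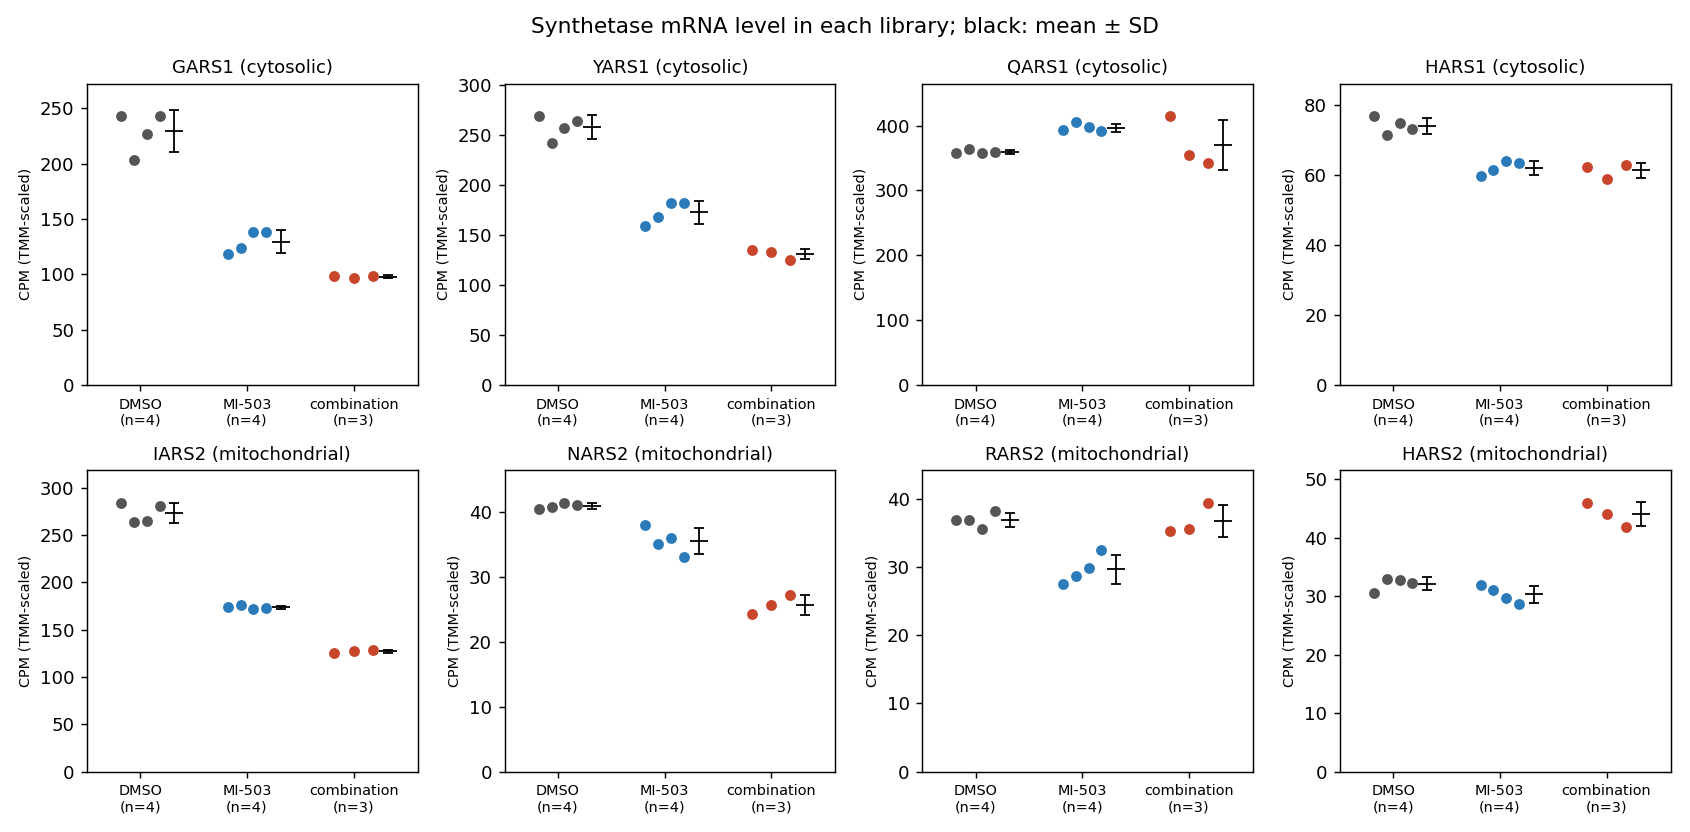
TMM-scaled CPM of 4 cytosolic genes (top) and 4 mitochondrial genes (bottom) in each DMSO, MI-503 and combination library, with the group mean ± SD in black and axes from 0. GARS1, YARS1 and IARS2 step down from DMSO to MI-503 to the combination, HARS2 lies at 41.9 to 46 CPM in the combination against 28.7 to 32.9 CPM elsewhere, and QARS1 is split within the combination.

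Both FARSA and FARSB fell. FARSA, the alpha subunit (chr19:12922479-12933711), stood at 534, 528, 545 and 522 CPM in DMSO, at 375, 395, 413 and 412 CPM in MI-503 and at 340, 352 and 375 CPM in the combination. FARSB, the beta subunit (chr2:222566899-222656092), stood at 106, 91.8, 96.2 and 104 CPM in DMSO, at 77.7, 79, 82.1 and 80 CPM in MI-503 and at 71.7, 69.1 and 70.3 CPM in the combination. For both subunits the treated libraries were all below DMSO, and the combination did not overlap MI-503 for either, although FARSA in combination replicate 4 came close to the lowest MI-503 library. Under MI-503, FARSA fell by 0.42 (SE 0.04, adjusted p = 6.08e-07) and FARSB fell by 0.32 (SE 0.05, adjusted p = 2.3e-05).

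WARS1, which charges tryptophan and is also inducible by interferon, fell with the rest. WARS1 (chr14:100333789-100376327) stood at 214, 193, 193 and 206 CPM in DMSO, at 141, 150, 159 and 158 CPM in MI-503 and at 145, 139 and 135 CPM in the combination. All treated libraries were below DMSO, and MI-503 and the combination overlapped. WARS1 fell by 0.41 under MI-503 (SE 0.05, adjusted p = 2.51e-06). KARS1, the lysine enzyme of both compartments (chr16:75627724-75647687), stood at 257, 250, 239 and 251 CPM in DMSO, at 190, 193, 199 and 194 CPM in MI-503 and at 179, 173 and 169 CPM in the combination. The 3 groups did not overlap, in falling order, and the MI-503 log2 fold change was -0.36 (SE 0.04, adjusted p = 6.46e-07).

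The other called cytosolic members lay between these. CARS1 (cysteine), YARS1 (tyrosine), TARS1 (threonine) and EPRS1 had log2 fold changes of -0.62, -0.58, -0.52 and -0.44 under MI-503. RARS1 (arginine), SARS1 (serine), IARS1 (isoleucine), LARS1 (leucine), AARS1 (alanine) and HARS1 (histidine) had log2 fold changes from -0.41 (RARS1) to -0.26 (HARS1). By assembly, 6 of 7 complex members fell with a median of -0.36, and 11 of 11 free enzymes fell with a median of -0.41. By promoter, the 7 cytosolic members with the element had a median log2 fold change of -0.52 (from -0.82 to -0.24) and the 9 with a window but no element one of -0.38 (from -0.44 to 0.14).

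The largest falls of the mitochondrial set were those of IARS2 and EARS2. IARS2, the isoleucine enzyme (chr1:220094132-220148041), stood at 284, 264, 265 and 280 CPM in DMSO, at 174, 176, 172 and 173 CPM in MI-503 and at 125, 127 and 129 CPM in the combination. The 3 groups formed separate steps. IARS2 fell by 0.65 under MI-503 (SE 0.04, adjusted p = 5.78e-10). EARS2 charges glutamate and also starts the mitochondrial route to glutaminyl-tRNA, in which an amidotransferase made of QRSL1, GATB and GATC finishes the glutamine. EARS2 (chr16:23520754-23557375) stood at 53, 57.5, 56.1 and 54.9 CPM in DMSO, at 35, 36.4, 35.6 and 35.5 CPM in MI-503 and at 30.8, 30.8 and 31.2 CPM in the combination. Its groups also did not overlap, and it fell by 0.63 under MI-503 (SE 0.04, adjusted p = 4.86e-09).

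At the other end of the mitochondrial set, AARS2 and MARS2 had the smallest falls that were called. AARS2, the alanine enzyme (chr6:44297850-44313358), stood at 104, 104, 111 and 99.5 CPM in DMSO, at 94.2, 92.5, 95.2 and 94.3 CPM in MI-503 and at 117, 106 and 107 CPM in the combination. MI-503 was below DMSO without overlap, and the combination overlapped DMSO. AARS2 fell by 0.15 under MI-503 (SE 0.04, adjusted p = 0.00856), and the call was lost with upper-quartile scaling (-0.089, adjusted p = 0.112) and with a stricter filter on low counts (-0.094, adjusted p = 0.0736, range over the alternatives 0.00682 to 0.112). MARS2, the methionine enzyme (chr2:197705369-197708395), stood at 46.9, 40.8, 42.4 and 45.6 CPM in DMSO, at 41.2, 37.8, 36.8 and 37.5 CPM in MI-503 and at 28.4, 37.2 and 37.9 CPM in the combination, where replicate 1 was the lowest of all libraries. DMSO and MI-503 overlapped by 1 library. MARS2 fell by 0.20 under MI-503 (SE 0.08, adjusted p = 0.0411), a call that 13 of 20 alternatives lost, with adjusted p from 0.00958 to 0.144. Libraries whose absence ended it were DMSO replicates 1 (-0.16), 3 (-0.22) and 4 (-0.18), MI-503 replicates 2 (-0.19), 3 (-0.18) and 4 (-0.19) and combination replicates 2 (-0.16) and 4 (-0.16).

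The remaining called mitochondrial members were WARS2 (tryptophan), LARS2 (leucine), YARS2 (tyrosine), FARS2 (phenylalanine), RARS2 (arginine), PARS2 (proline), CARS2 (cysteine) and NARS2 (asparagine), from -0.52 (WARS2) to -0.20 (NARS2). The PARS2 call (-0.27, adjusted p = 0.0247) rested on low counts, at 5.53 to 6.13 CPM in MI-503 against 6.78 to 7.54 CPM in DMSO. It was lost without DMSO replicate 2 (-0.24), MI-503 replicate 1 (-0.27), MI-503 replicate 3 (-0.25) or combination replicate 4 (-0.24), with adjusted p from 0.0203 to 0.0851 over the alternatives. TARS2, the threonine enzyme, had a log2 fold change of -0.02 (SE 0.06, adjusted p = 0.785), and this value changed sign under 11 alternatives. Within the mitochondrial set all 8 class I genes fell, with a median of -0.47, and 4 of 6 class II genes fell, with a median of -0.18. In the cytosol the class medians were -0.41 for class I and -0.36 for class II.

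The combination was then compared with DMSO, using the same DMSO libraries. Of the 18 cytosolic members 17 fell, none rose and QARS1 was not called (0.04, SE 0.05, adjusted p = 0.505). Of all tested genes 64.5% were called, 32.8% lower and 31.7% higher. The cytosolic median was -0.55 and that of all tested genes 0.013. Of 14 mitochondrial members 10 fell and 1 (HARS2) rose, with a median of -0.40, and AARS2, PARS2 and RARS2 were not called. Groups stood apart, all lower, for 17 cytosolic members, and for the mitochondrial ones 9 lower and 1 higher, where 60.5% of all tested genes stood apart, 31.2% lower and 29.3% higher.

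**Figure D3:**
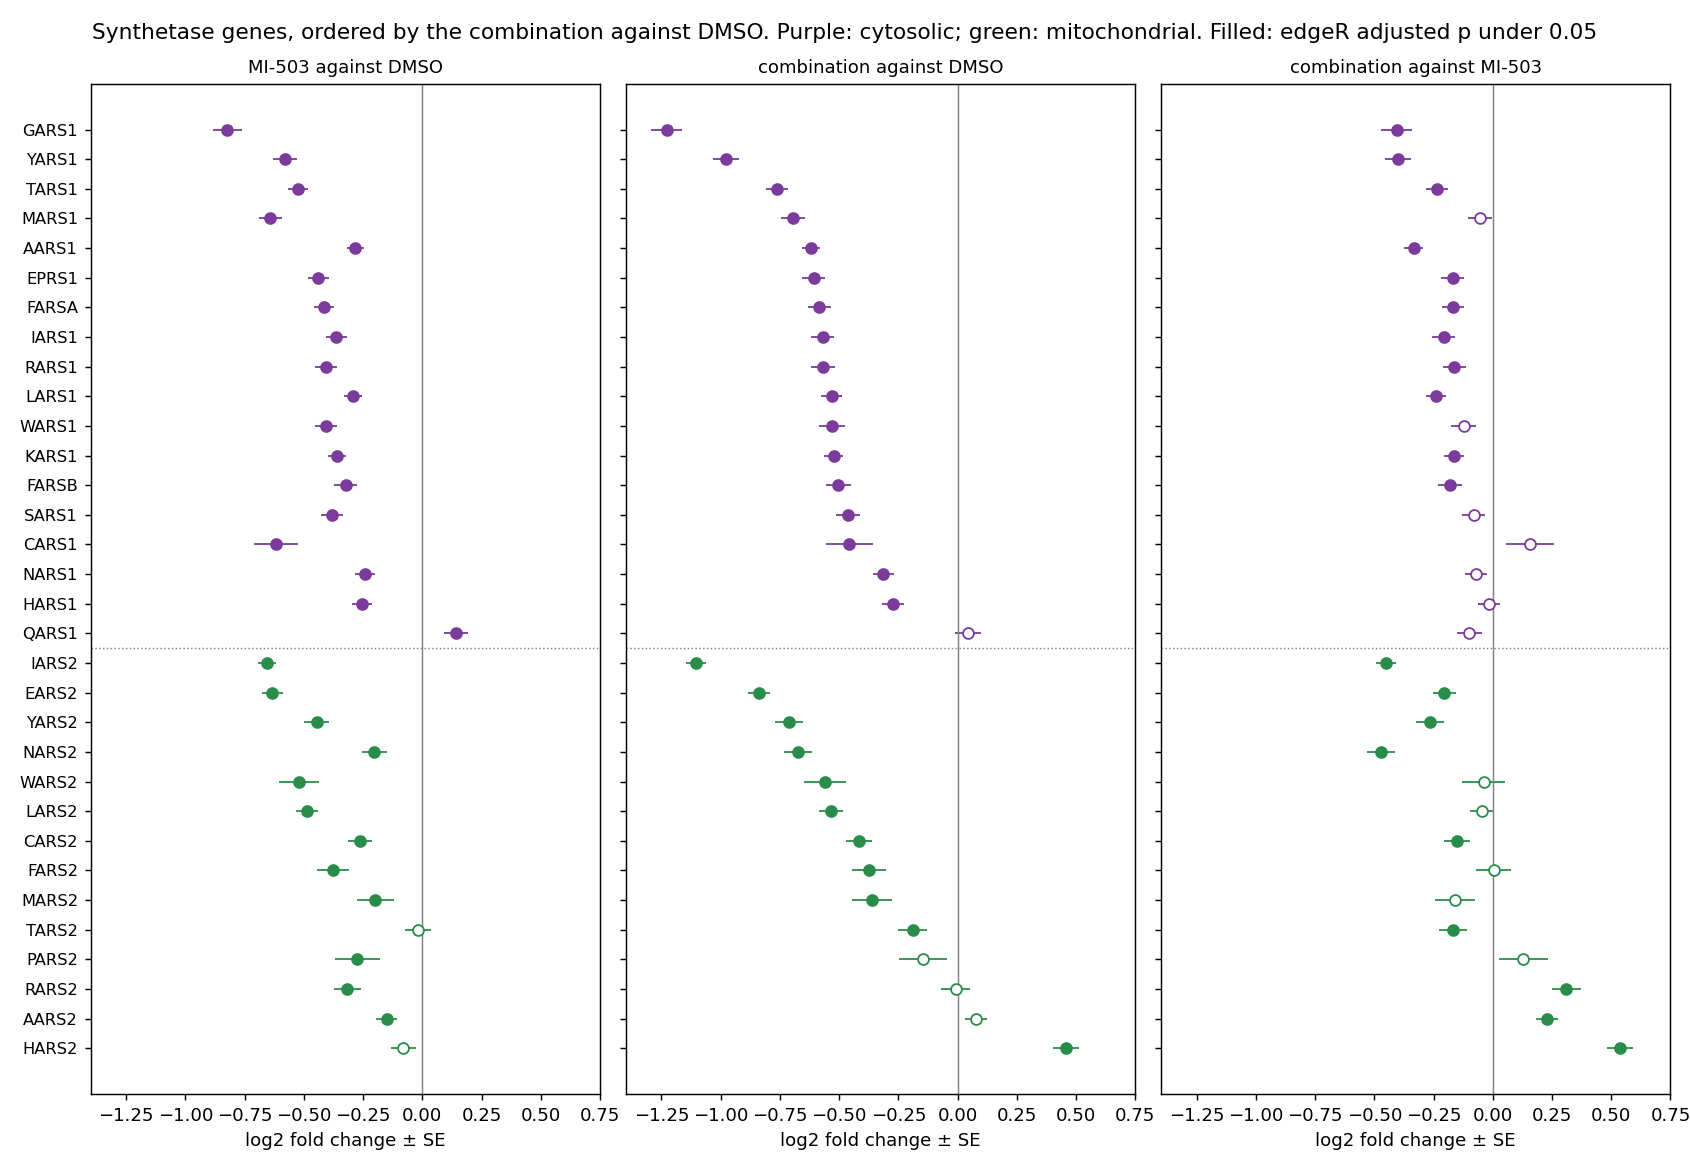
Log2 fold change ± SE of the 32 tested genes in the 3 comparisons, cytosolic above the dotted line in purple and mitochondrial below it in green, with filled points for edgeR adjusted p under 0.05. In the combination against DMSO the values run from -1.23 (GARS1) to 0.46 (HARS2), and in the combination against MI-503 the cytosolic values run from -0.41 (GARS1) to 0.16 (CARS1) and the mitochondrial ones from -0.47 (NARS2) to 0.54 (HARS2).

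More than 2-fold falls were seen for 1 gene of each compartment, GARS1 and IARS2. GARS1 fell by 1.23 on the log2 scale (SE 0.07, adjusted p = 9.1e-11) and IARS2 fell by 1.11 (SE 0.04, adjusted p = 1.75e-12) against DMSO. YARS1, the tyrosine enzyme (chr1:32775238-32818032), stood at 269, 242, 257 and 264 CPM in DMSO, at 159, 168, 182 and 182 CPM in MI-503 and at 135, 133 and 125 CPM in the combination. Its groups formed 3 separate steps, and it fell by 0.98 against DMSO (SE 0.06, adjusted p = 1.51e-10). EARS2 fell by 0.84 (SE 0.05, adjusted p = 1.5e-10).

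The weakest falls against DMSO were those of HARS1 and NARS1 in the cytosol and TARS2 in mitochondria. HARS1, the histidine enzyme (chr5:140673904-140691727), stood at 77, 71.6, 75 and 73.3 CPM in DMSO, at 59.7, 61.6, 64 and 63.5 CPM in MI-503 and at 62.4, 58.9 and 62.9 CPM in the combination. Both treated groups were below DMSO and overlapped each other. HARS1 fell by 0.27 (SE 0.05, adjusted p = 5.37e-05) and NARS1 fell by 0.31 (SE 0.05, adjusted p = 1.22e-05). TARS2 (chr1:150487411-150507609) stood at 60.5, 67.5, 66.8 and 58.3 CPM in DMSO, at 64.5, 64.6, 60.9 and 59.4 CPM in MI-503 and at 59, 52.9 and 54.1 CPM in the combination. DMSO spread over the whole MI-503 range, and combination replicate 1 fell inside the DMSO range. TARS2 fell by 0.19 (SE 0.06, adjusted p = 0.0101) against DMSO, and with upper-quartile scaling the call was lost (-0.12, adjusted p = 0.102, range 0.00265 to 0.102).

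HARS2 was the member that rose. HARS2, the mitochondrial histidine enzyme (chr5:140691444-140699308), stood at 30.5, 32.9, 32.8 and 32.2 CPM in DMSO, at 32, 31, 29.7 and 28.7 CPM in MI-503 and at 46, 44.1 and 41.9 CPM in the combination. The combination was above every other library, and DMSO and MI-503 overlapped. HARS2 rose by 0.46 against DMSO (SE 0.06, adjusted p = 1.25e-06) and had a log2 fold change of -0.08 under MI-503 (SE 0.05, adjusted p = 0.217). HARS1 and HARS2 lie head to head, with 84 bases between the starts of their RefSeq windows at positions 140691370 and 140691455 of chromosome 5, and the longest annotated spans of the genes share 284 bases. Exon bases shared with other genes came to 21.68% for HARS1 and 9.85% for HARS2. The counting ignored strand and left out fragments in shared exons, so fragments that touch the shared bases of this pair were counted for neither gene.

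Adding PR-957 to MI-503 was read from the combination against MI-503, which reuses the MI-503 libraries of the first comparison.  Of the cytosolic members 11 fell and none rose, with a median of -0.17, while of the mitochondrial members 6 fell and 3 rose, with a median of -0.10. Of all tested genes 47.4% were called, 23.8% lower and 23.6% higher, and their median was 0.004. Groups stood apart for 12 cytosolic members, all lower, and for 9 mitochondrial members, 6 lower and 3 higher, where 47.6% of all tested genes stood apart, 23.7% lower and 23.8% higher. A difference between the compartments was not tested.

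GARS1 and YARS1 again had the largest cytosolic falls, at -0.41 (SE 0.07, adjusted p = 8.76e-05) and -0.40 (SE 0.06, adjusted p = 1.65e-05). Falls were also called for AARS1 (-0.33), LARS1 (-0.24), TARS1 (-0.24) and IARS1 (-0.21). FARSB, EPRS1, FARSA, KARS1 and RARS1 formed a narrow band from -0.18 (FARSB) to -0.16 (RARS1), with SE of about 0.05 and adjusted p from 0.00335 (KARS1) to 0.011 (RARS1). RARS1 (chr5:168486471-168519301) stood at 100, 95.2, 97.8 and 102 CPM in DMSO, at 72.3, 74.3, 74.3 and 77.2 CPM in MI-503 and at 63, 65.8 and 71.2 CPM in the combination. The 3 groups did not overlap for RARS1, although combination replicate 4 came near the lowest MI-503 library.

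The 7 cytosolic members not called were CARS1, HARS1, MARS1, NARS1, QARS1, SARS1 and WARS1. Of all tested genes 3489 were called lower, and 3145 to 4059 when 1 library at a time was left out. Whether the members only shared this shift was not tested. Leaving out combination replicate 1 brought the number of cytosolic members called lower from 11 to 14. Without it QARS1 was called at -0.22 (adjusted p = 9.51e-05, against -0.10 and 0.142 with it, range 9.51e-05 to 0.256). WARS1 was called at -0.18 (adjusted p = 0.00672, against -0.12 and 0.0641 with it, range 0.00672 to 0.165). SARS1 was called at -0.16 (adjusted p = 0.0121, against -0.08 and 0.193 with it, range 0.0121 to 0.401). WARS1 also passed with MI-503 replicate 1 left out (-0.16, adjusted p = 0.0256) and with combination replicate 2 left out (-0.16, adjusted p = 0.0475). With all libraries, WARS1 passed under RLE scaling factors (-0.14, adjusted p = 0.0341), the stricter filter (-0.14, adjusted p = 0.0327) and DESeq2 (-0.14, adjusted p = 0.0304). NARS1 passed with combination replicate 4 left out (-0.14, adjusted p = 0.0266, against -0.07 and 0.22 with it, range 0.0266 to 0.44). The cytosolic members with the promoter element had a median of -0.21 (from -0.41 to 0.16). Those with a window but no element had one of -0.16 (from -0.18 to -0.02), a range inside the first. YARS1 and LARS1, without a window, are in neither group.

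Among the mitochondrial genes, HARS2 rose by 0.54 over MI-503 (SE 0.06, adjusted p = 6.58e-07), RARS2 by 0.31 and AARS2 by 0.23 (SE 0.05, adjusted p = 0.000731). RARS2, the arginine enzyme (chr6:87513935-87590032), stood at 36.9, 36.8, 35.6 and 38.2 CPM in DMSO, at 27.5, 28.7, 29.9 and 32.4 CPM in MI-503 and at 35.2, 35.6 and 39.4 CPM in the combination. The combination lay above MI-503 without overlap and across the DMSO range. RARS2 rose with SE 0.06 and adjusted p = 0.000542 over MI-503, and its log2 fold change against DMSO was -0.007 (SE 0.06, adjusted p = 0.931).

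NARS2 and IARS2 fell most. NARS2, the mitochondrial asparagine enzyme (chr11:78435961-78574864), stood at 40.4, 40.8, 41.4 and 41 CPM in DMSO, at 37.9, 35.1, 36 and 33.1 CPM in MI-503 and at 24.2, 25.6 and 27.2 CPM in the combination. The groups did not overlap, in falling order from DMSO to MI-503 to the combination. NARS2 fell by 0.47 (SE 0.06, adjusted p = 5.17e-06) and IARS2 fell by 0.45 (SE 0.04, adjusted p = 1.99e-07). Falls were also called for YARS2 (-0.27), EARS2 (-0.21), TARS2 (-0.17) and CARS2 (-0.15), and FARS2, LARS2, MARS2, PARS2 and WARS2 were not called.

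Single libraries decided 3 of these mitochondrial results. CARS2 stood at 73 to 75.4 CPM in MI-503 and at 59.8, 70.3 and 71.3 CPM in combination replicates 1, 2 and 4. Its call (adjusted p = 0.0291) was lost without combination replicate 1 (-0.10, adjusted p = 0.0752) and without MI-503 replicate 2 (-0.15, 0.0531), 3 (-0.15, 0.0622) or 4 (-0.15, 0.0654), with a range of 0.00268 to 0.0752 over the alternatives. The TARS2 call (adjusted p = 0.0262) was lost without MI-503 replicate 1 (-0.15, adjusted p = 0.0662) or 2 (-0.15, 0.0747), with a range of 0.00149 to 0.0747. MARS2, at -0.16 (adjusted p = 0.13), passed when combination replicate 2 (-0.25, adjusted p = 0.0421) or replicate 4 (-0.28, adjusted p = 0.0143) was left out, and stood at -0.053 (adjusted p = 0.504) without replicate 1, with a range of 0.0143 to 0.504.

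Genes for the same amino acid were set against each other within each library, since a ratio inside a library does not depend on how libraries are scaled. Against DMSO, the log2 ratio of the cytosolic over the mitochondrial gene, per kb of exon, stood apart in 6 of 13 pairs under MI-503 (4 lower, 2 higher) and in 10 pairs in the combination (8 lower, 2 higher). Between the combination and MI-503 it stood apart in 9 pairs, 6 lower and 3 higher. The pairs FARSA/FARS2 and FARSB/FARS2 share the mitochondrial gene, and CARS1/CARS2 carries the limit given for CARS1. EPRS1 was not paired with EARS2 or PARS2, so glutamate and proline are left out of these counts. In the combination against DMSO, EPRS1 had a log2 fold change of -0.61, EARS2 of -0.84 and PARS2, not called, of -0.15. Other gene pairs were not examined, so these counts have no background share. Of single tested genes, 50.3%, 60.5% and 47.6% stood apart in these comparisons. HARS1/HARS2 had a log2 ratio of 1.53 ± 0.09 (SD, n = 4) in DMSO, 1.36 ± 0.11 (n = 4) in MI-503 and 0.80 ± 0.09 (n = 3) in the combination. AARS1/AARS2 went from 2.702 ± 0.09 to 2.57 ± 0.03 and 2.01 ± 0.07, and RARS1/RARS2 from 2.41 ± 0.04 to 2.32 ± 0.06 and 1.85 ± 0.03. In these 3 pairs the combination was below both other groups, while MI-503 and DMSO overlapped.

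Isoleucine and asparagine went the other way. IARS1/IARS2 had a log2 ratio of -0.04 ± 0.04 in DMSO, 0.26 ± 0.04 in MI-503 and 0.50 ± 0.08 in the combination, with no overlap between any groups. NARS1/NARS2 stood at 3.16 ± 0.07, 3.12 ± 0.09 and 3.52 ± 0.03, so that only the combination was apart. TARS1/TARS2 fell under MI-503, from 2.50 ± 0.16 to 2.00 ± 0.10, and stood at 1.93 ± 0.04 in the combination, overlapping MI-503. WARS1/WARS2 overlapped between all groups, at 3.81 ± 0.11, 3.92 ± 0.09 and 3.86 ± 0.11.

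**Figure D4:**
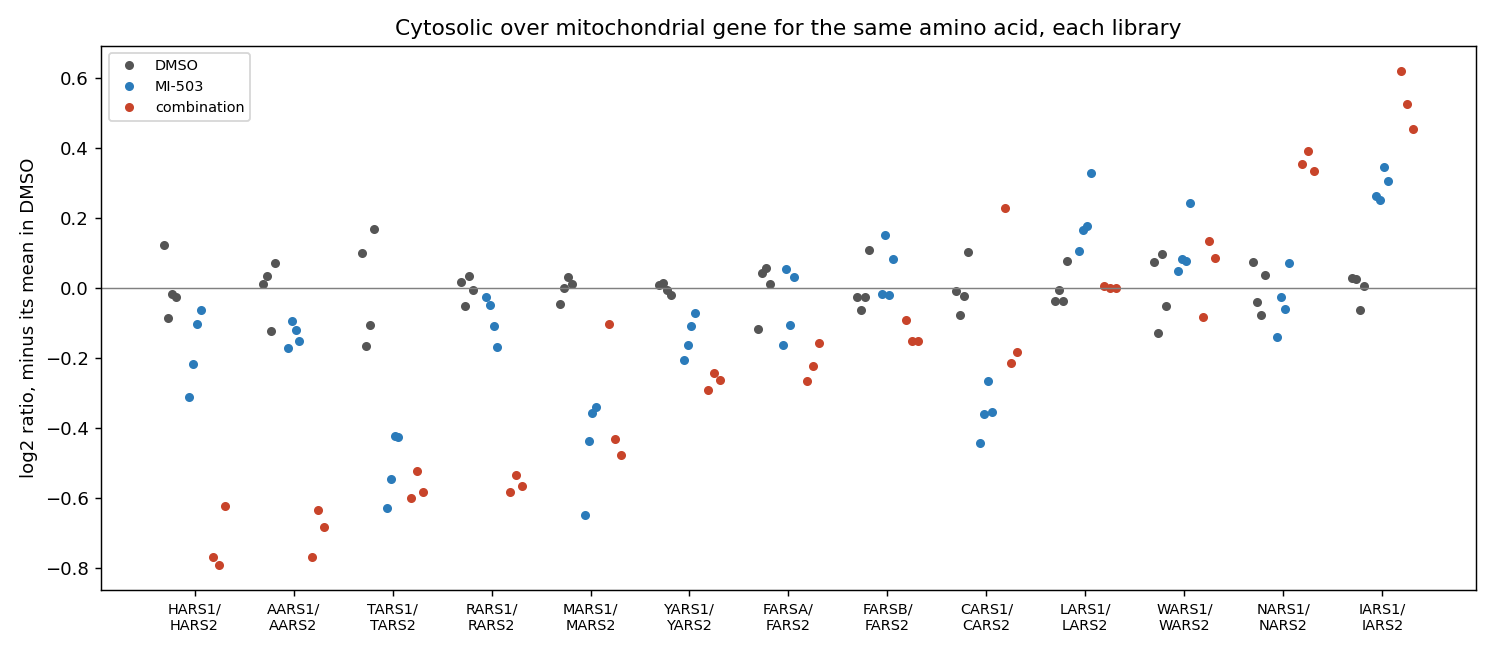
Log2 ratio of the cytosolic over the mitochondrial gene for the same amino acid in each library, minus its mean in DMSO, ordered by the difference between the combination and DMSO. Combination libraries lie lowest for HARS1/HARS2, where the mean ratio was 0.73 below DMSO, and highest for IARS1/IARS2, where it was 0.54 above DMSO.

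Partners of tRNA charging were read beside the synthetases. This list held 13 genes, among them the scaffold proteins of the complex, the amidotransferase subunits and proofreading enzymes, and 12 were tested. Of these, 8 fell and 1 rose under MI-503, 9 fell and 1 rose in the combination against DMSO, and 4 fell and 1 rose in the combination against MI-503. The share that fell was 66.7%, 75% and 33.3% in these comparisons, against 29.3%, 32.8% and 23.8% of all tested genes. Called rises made up 22.0%, 31.7% and 23.6% of all tested genes. DTD1, which removes D-amino acids from tRNA, averaged 49.4 CPM in DMSO, 38.1 in MI-503 and 26.2 in the combination and fell by 0.54 over MI-503 (SE 0.05, adjusted p = 5.22e-07). EEF1E1, a component of the multi-synthetase complex also known as AIMP3, averaged 11.1, 8.29 and 5.88 CPM and fell by 0.50 (SE 0.10, adjusted p = 0.000814). DTD2, a related proofreading enzyme, averaged 18.9, 14.5 and 12 CPM and fell by 0.27 (SE 0.07, adjusted p = 0.00673).

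ATF4 and 17 genes tied to it moved in both directions. Of the 17 tested genes of this list, 12 fell and 1 rose under MI-503, 11 fell and 4 rose in the combination against DMSO, and 6 fell and 7 rose in the combination against MI-503. The share that fell was 70.6%, 64.7% and 35.3%, where all tested genes had 29.3%, 32.8% and 23.8% lower and 22.0%, 31.7% and 23.6% higher. ATF4 itself averaged 552, 385 and 365 CPM in DMSO, MI-503 and the combination, with log2 fold changes of -0.52 under MI-503 (SE 0.07, adjusted p = 6.59e-06) and -0.08 between the combination and MI-503 (SE 0.07, adjusted p = 0.409). PHGDH, the first enzyme of serine synthesis, averaged 327, 209 and 120 CPM and fell by 0.81 over MI-503 (SE 0.06, adjusted p = 1.33e-08). DDIT3, the stress factor CHOP, averaged 12.8, 12.1 and 28.8 CPM and rose by 1.24 over MI-503 (SE 0.10, adjusted p = 3.18e-08). NUPR1, a stress-induced chromatin protein, averaged 0.327, 0.321 and 4.15 CPM and rose by 3.59 (SE 0.47, adjusted p = 9.26e-06). In the DMSO and MI-503 libraries 3 counts are 0.0867 to 0.14 CPM before TMM scaling, so the size of the NUPR1 rise rests on few counts there. The cytosolic synthetases had no called rise over MI-503 in the same libraries in which DDIT3 and NUPR1 rose.

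Other translation factors were read as a further list, and no difference between lists was tested. Of the 4 tested cytosolic elongation factors none fell under MI-503 and EEF1G rose (0.23, SE 0.06, adjusted p = 0.00255), from 2980 CPM in DMSO to 3493 in MI-503 and 3657 in the combination. In the combination against DMSO, EEF1G rose by 0.30 (SE 0.06, adjusted p = 0.00038) and EEF1D, listed at only 3.93 CPM in DMSO and 2.89 in the combination, fell by 0.44 (SE 0.15, adjusted p = 0.0158). EEF1D and EEF2 were not called between the combination and MI-503, at -0.15 (SE 0.15) and -0.06 (SE 0.08). EEF1D exons were not searched for copies elsewhere, and the cause of the low EEF1D level was not tested. The fallen share of this cytosolic list was 0%, 25% and 0% in the 3 comparisons, beside 29.3%, 32.8% and 23.8% of all tested genes. All 8 mitochondrial translation factors fell under MI-503, 6 fell in the combination against DMSO, and 3 rose and 1 fell in the combination against MI-503. These falls were 100%, 75% and 12.5% of the mitochondrial list, beside the 29.3%, 32.8% and 23.8% of all tested genes. Called rises made up 22.0%, 31.7% and 23.6% of all tested genes. TSFM, the exchange factor of mitochondrial elongation, averaged 90.4, 54.1 and 48.2 CPM and fell by 0.17 over MI-503 (SE 0.05, adjusted p = 0.0158). MTIF3 and MTIF2, which start mitochondrial translation, rose by 0.19 (SE 0.05, adjusted p = 0.00971) and 0.13 (SE 0.05, adjusted p = 0.0234).

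Interferon-inducible genes were read because WARS1 is one of them. Of 9 tested, 4 fell and 3 rose under MI-503, 3 fell and 4 rose in the combination against DMSO, and 2 fell and 3 rose in the combination against MI-503. The fallen share was 44.4%, 33.3% and 22.2%, beside 29.3%, 32.8% and 23.8% of all tested genes, so that in both combination comparisons it was near the background. Called rises made up 22.0%, 31.7% and 23.6% of all tested genes. OAS1 averaged 4.02, 1.9 and 8.8 CPM in DMSO, MI-503 and the combination and rose by 2.18 over MI-503 (SE 0.21, adjusted p = 3.79e-07). IFIT3 rose by 1.24 (SE 0.18, adjusted p = 2.78e-05) and MX1 fell by 0.71 (SE 0.15, adjusted p = 0.00076), while WARS1 had a log2 fold change of -0.12.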

How the data were processed

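RNA of MOLM-13 cells was sequenced as read pairs from 11 TruSeq libraries. The submitters' processing notes name Trimmomatic 0.39, STAR 2.7.10a, featureCounts 2.0.1, DESeq2 and hg38. The deposited values used here are raw counts of fragments per gene, made by the authors with featureCounts on RefSeq exons, without strand and without fragments that mapped to several places or overlapped several genes. Per the file headers the alignments had been filtered before counting, by a rule not given in the sources used here. Joined and single-library tables differed in 0 cells. The authors' tables of differential expression, which hold log2 fold changes and p-values from DESeq2, were not used.

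Counts were analysed in R 4.3.3 with edgeR 4.0.16 (quasi-likelihood test, two-sided, TMM factors 0.956 to 1.06, filterByExpr with a minimum count of 10 and a minimum total of 15). All 11 libraries entered 1 fit with a mean per group, common dispersion 0.00378 (biological coefficient of variation 6.14%) and 8 residual degrees of freedom. P-values were adjusted by Benjamini-Hochberg over 14683 genes, every adjusted p in the text comes from this edgeR fit or a stated alternative, and a gene was called under 0.05. CPM are scaled by TMM and log2 fold changes are differences between group means. A level of 3 counts, the limit of a count of 0, is 0.0968 CPM in DMSO replicate 1 before TMM scaling. The script was tested on simulated data. Gene spans are those written in the deposited count tables (hg38). Exon windows were mapped to hg38 with minimap2 2.31. Python 3.11.15, numpy 2.4.6, pandas 2.3.3 and matplotlib 3.10.9 were used for the rest.

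The members and lists were chosen with earlier results of these data known. Library values are given, per comparison and compartment, for the 2 called members with the largest and the 2 with the smallest log2 fold change, and for WARS1, FARSA, FARSB, HARS1, HARS2, GARS1 and KARS1. Of each pathway list the 3 members with the smallest adjusted p in the combination against MI-503 are named, and ATF4 and COL1A1 were added after their values were seen. Alternatives were RLE and upper-quartile scaling, no filter, a mean of at least 50 counts, DESeq2 1.42.0, limma-voom 3.58.1, a replicate block, the compared groups alone, adjusted p under 0.01, and leaving out each library.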

Additional observations from a re-analysis of the deposited data

Results flagged for a closer look

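Among 64 sets of 4 libraries (32 tested genes in DMSO and in MI-503), 1 value lay far from the other libraries of its group. FARS2, the mitochondrial phenylalanine enzyme, stood at 21.2 CPM in DMSO replicate 1 against 18.7 to 19.2 CPM in the other DMSO libraries, a gap of 0.83 of the whole range. Chance sets apart about 1 such group in 20. The combination, with 3 libraries, was not examined in this way. FARS2 was called lower in both comparisons with DMSO under each of the 20 alternatives, leaving out that library included.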

How the results depend on the processing

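Of 1920 checks of single genes, 1836 kept direction and side of the threshold, 41 lost a call, 13 gained one and 30 changed sign, each of a value that was not called. Upper-quartile scaling moved the share of rises among called genes under MI-503 from 42.9% to 54.2%.

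Under MI-503 the cytosolic median was -0.33 with upper-quartile factors, -0.34 with the stricter filter and -0.35 in the 2 groups alone. The mitochondrial median was -0.27 with RLE factors, -0.23 with upper-quartile factors, -0.25 without a filter, -0.24 with the stricter filter, -0.27 with DESeq2 and -0.25 in the 2 groups alone. In the combination against DMSO the cytosolic median was -0.48 with upper-quartile factors and -0.51 with the stricter filter. The mitochondrial one was -0.39 with RLE factors, -0.33 with upper-quartile factors, -0.35 with the stricter filter, -0.39 with DESeq2, -0.41 with limma-voom and -0.38 in the 2 groups alone. In the combination against MI-503 the mitochondrial median was -0.12 with RLE factors and DESeq2, -0.15 without a filter and -0.11 with the stricter filter. Without a filter SARS2 enters. The cause of the other shifts was not tested.

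Mitochondrial members higher in the combination against DMSO numbered 2, with AARS2, under upper-quartile factors and the stricter filter, and cytosolic members higher under MI-503 numbered 0 at an adjusted p under 0.01. Leaving out 1 library at a time, this last count ran from 0 to 1 and the mitochondrial members lower under MI-503 from 10 to 12. In these fits 2851 to 4141 of all genes were called higher and 3732 to 4217 lower under MI-503. With all libraries these numbers were 3235 and 4307. In the combination against MI-503, 11 to 14 cytosolic and 4 to 7 mitochondrial members were lower. All genes called lower there ran from 3145 to 4059, against 3489 with all libraries. Medians ran from -0.32 to -0.25 (mitochondrial, MI-503), -0.46 to -0.33 (mitochondrial, combination against DMSO), -0.21 to -0.15 (cytosolic, combination against MI-503) and -0.137 to -0.088 (mitochondrial, combination against MI-503).

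Signs changed for TARS2 under MI-503 (0.007 with RLE factors and DESeq2, 0.041 with upper-quartile factors, 0.037 with the stricter filter, 0.029 in the 2 groups alone) and for RARS2 in the combination against DMSO (0.004 with RLE factors and DESeq2, 0.062 with upper-quartile factors, 0.019 without a filter, 0.039 with the stricter filter, 0.011 in the 2 groups alone). FARS2 in the combination against MI-503 was -0.014 with RLE factors and DESeq2 and -0.01 with the stricter filter. With single libraries left out, TARS2 ran from -0.058 to 0.025, RARS2 from -0.062 to 0.046 and FARS2 from -0.046 to 0.042. QARS1 in the combination against DMSO ran from -0.029 (without combination replicate 1) to 0.095, and PARS2 in the combination against MI-503 from -0.009 (without combination replicate 2) to 0.159.

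Same-number correlations of deviations ran from -0.10 to 0.14 over 10 pairs, 1 above 0.1, and 3 of 11 libraries correlated best with their own number. With so few libraries per group, these correlations cannot show whether replicates were paired or prepared in batches. With the replicate block, 17 cytosolic members were lower in each comparison with DMSO and 11 in the combination against MI-503, and the mitochondrial counts were 12, 10 and 6. These equal the counts of the main fit, and all-gene counts with the block are not given here.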
